A study of Saccharomyces cerevisiae with 12 samples.

Results

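The sulfate assimilation and methionine genes of budding yeast were 37 genes of the 7138 non-ribosomal genes in a table of read counts. Members were chosen by name for their role, with earlier results of these data known. They comprised 11 genes of sulfate uptake and reduction, 11 genes of methionine, cysteine and S-adenosylmethionine synthesis, 6 regulators, and 9 genes for the uptake and reuse of organic sulfur. All 37 had a row in the table, and all passed the filter on low counts that left 6171 genes tested. RNA was sequenced from log-phase Saccharomyces cerevisiae in rich medium with 2% glucose at 30 °C. The 12 libraries of 4 genotypes served to compare loss of the corepressor subunit Cyc8, loss of the chromatin remodeller ATPase Snf2, and loss of both. The wt group (n = 3) was strain BY4741, of mating type a with the alleles ura3del0, met15del0, leu2del0 and his3del1. The cyc8 group (n = 3) was YAFTCD4, the same strain with cyc8::KAN. The snf2 group (n = 2) was FY2083, also of mating type a, with snf2::LEU2 and the alleles lys2del0, trp1-del63, met15del0, ura3del0 and his3del200. The double mutant group (n = 4) was YDB1.7, which carries cyc8::URA3 besides the FY2083 alleles. All 4 groups therefore carry met15del0, which removes MET17 (also called MET15), the enzyme that joins sulfide to O-acetylhomoserine, and this gene is not among the 37. Strain background changed together with snf2, so a difference between a group with snf2 and a group without it cannot be told apart from a difference between the strains. The allele of cyc8 differs as well, cyc8::KAN in the cyc8 group and cyc8::URA3 in the double mutant. No label says that the replicates were separate cultures or clones, so the p-values cover the scatter of these libraries alone, possibly a technical one.

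Yeast takes up sulfate through the permeases Sul1 and Sul2, activates it with ATP, and reduces it first to sulfite and then to sulfide, which is built into homocysteine and from there into methionine, cysteine, glutathione and S-adenosylmethionine. The activator Met4 has no DNA binding of its own and is brought to promoters by Cbf1, which recognises CACGTG, and by Met31 and Met32, whose sites share the core CTGTGG. Ample sulfur amino acids lead the ubiquitin ligase subunit Met30 to silence Met4, so the pathway is low in rich medium. Cyc8 acts with Tup1 as a general corepressor, and Snf2 is the motor of the SWI/SNF complex, which moves nucleosomes at many inducible promoters.

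The following stretches of R64 show CACGTG, in capitals, in the 300 bases before the start of the gene model for the 9 members that rose in the libraries labelled snf2 and hold it there, each on the strand of its gene and with 12 bases on either side.
MET1 (chrXI:571332-571361, plus strand): aatgccattatgCACGTGacattacaaatt
MET10 (chrVI:213069-213098, plus strand): agcttatagaagCACGTGaccacaattcac
MET14 (chrXI:439596-439625, minus strand): tgccactaatttCACGTGatcaatatattt
MET16 (chrXVI:877793-877822, minus strand): ttatcatcatttCACGTGgctagtaaaaga
MET2 (chrXIV:116984-117013, plus strand): ttgacgtattttCACGTGatgcgcctcact
MET3 (chrX:455867-455896, plus strand): gaccagaaaagtCACGTGtaattttgtaac
MET32 (chrIV:964926-964955, minus strand): tggactaacatgCACGTGacattttgtgat
MET6 (chrV:342645-342674, minus strand): caggaaatatttCACGTGacttacaaacag
MET8 (chrII:650147-650176, plus strand): gcgtcataatttCACGTGttataatagcca
The windows of MET14, STR3 and GSH1, printed whole below, overlap no other gene model. That of MET14 holds CACGTG 77 bases before the start of the model. The window of STR3, another member that rose with snf2, holds neither CACGTG nor CTGTGG. The window of GSH1 holds both, in capitals, and GSH1 was not called in any comparison. The 207 bases between the divergent genes MHT1 and MMP1 hold CTGTGG on the opposite strand, seen here in capitals as CCACAG at 2 places.
MET14 (chrXI:439537-439836, minus strand): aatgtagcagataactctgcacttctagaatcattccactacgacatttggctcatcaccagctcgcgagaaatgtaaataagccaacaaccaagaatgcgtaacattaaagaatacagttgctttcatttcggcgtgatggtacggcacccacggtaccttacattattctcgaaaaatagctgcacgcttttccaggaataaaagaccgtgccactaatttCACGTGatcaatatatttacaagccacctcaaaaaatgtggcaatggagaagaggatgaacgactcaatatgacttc
STR3 (chrVII:156078-156377, minus strand): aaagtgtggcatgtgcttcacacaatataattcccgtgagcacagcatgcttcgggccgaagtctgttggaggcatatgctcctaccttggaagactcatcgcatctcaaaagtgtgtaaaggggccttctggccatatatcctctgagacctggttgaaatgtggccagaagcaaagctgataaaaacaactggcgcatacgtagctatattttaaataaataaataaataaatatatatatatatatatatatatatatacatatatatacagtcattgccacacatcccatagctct
GSH1 (chrX:236508-236807, minus strand): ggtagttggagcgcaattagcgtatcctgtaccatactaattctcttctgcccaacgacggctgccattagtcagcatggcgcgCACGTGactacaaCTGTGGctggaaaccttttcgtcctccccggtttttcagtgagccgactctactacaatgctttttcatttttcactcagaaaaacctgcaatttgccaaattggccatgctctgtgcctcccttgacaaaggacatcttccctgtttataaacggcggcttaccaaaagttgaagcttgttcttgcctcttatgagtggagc
MHT1 to MMP1 (chrXII:17733-17939, plus strand): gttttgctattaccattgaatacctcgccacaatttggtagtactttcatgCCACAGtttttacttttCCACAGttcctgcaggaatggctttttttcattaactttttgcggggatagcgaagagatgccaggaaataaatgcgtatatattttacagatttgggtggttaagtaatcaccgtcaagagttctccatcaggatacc
The coordinates are those of R64, and a match of letters is a description and not a bound site.

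Library totals were 16378131 to 27230568 counts, so a count of 0 allows a level of up to 0.105 to 0.192 counts per 1000000 (CPM, on scaled library sizes), a limit that covers counting error only. Errors given after ± are SDs over the libraries of a group unless SE is named. The transcripts of the targeted genes were not lost. CYC8 stood at 59.3 ± 4.72 CPM (SD, n = 3) in cyc8 and 53.2 ± 2.58 (n = 4) in the double mutant against 77.1 ± 6.47 (n = 3) in wt. SNF2 stood at 66.0 ± 0.933 CPM (n = 2) in snf2, 109 ± 4.42 in the double mutant and 80.1 ± 8.21 in wt. How much of each gene the marker replaced is unknown from the labels, so groups are named by their labels throughout, as libraries labelled cyc8, snf2 or both. The markers of the constructs followed the labels, with LEU2 at 483 ± 21.7 CPM in snf2 and 269 ± 69.7 in the double mutant, and URA3 at 18.3 ± 1.24 in the double mutant. MET17 had 0 to 18 counts in any library. The 6 marker genes of mating type a had group means from 6.67 to 1026 CPM, and both alpha factor genes had at most 0.438. All 6 were highest in wt. BAR1 had 169 ± 35.3 CPM in wt, 10.2 ± 2.06 with cyc8, 38.5 ± 2.86 with snf2 and 6.67 ± 1.78 with both. MFA2 had 1026 ± 25.4, 765 ± 159, 210 ± 2.78 and 518 ± 41.9 in that order. STE3, the third alpha-specific marker, had 3.16 ± 0.794 CPM in wt, 0.765 ± 0.218 with cyc8, 9.23 ± 0.128 with snf2 and 0.298 ± 0.0300 with both.

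Most of the 37 genes had their lowest mean in wt and their highest in snf2. SUL1, SUL2 and STR3 rose in cyc8 against wt and fell in the double mutant against snf2. The mean was highest in snf2 for 25 members (67.6%, against 32.1% of all genes tested) and lowest in wt for 24 (64.9%, against 24.1%). Both libraries labelled snf2 lay above the 10 others for 22 members (59.5%, against 15.4% of all genes tested). All 3 wt libraries lay below the 9 others for 21 members (56.8%, against 9.69%). The order of means snf2, double mutant, cyc8, wt held for 18 members (48.6%, against 4.73%), and for 8 of these no neighbouring groups overlapped (21.6% of the members, against 0.389% of all genes tested). Those 8 were MET3, MET16, MET22, MET2, MET6, STR3, CYS3 and MMP1. The 4 members whose wt libraries all lay above the rest were CYS4, GSH1, MUP3 and OPT1 (10.8%, against 9.92%).

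**Figure D1:**
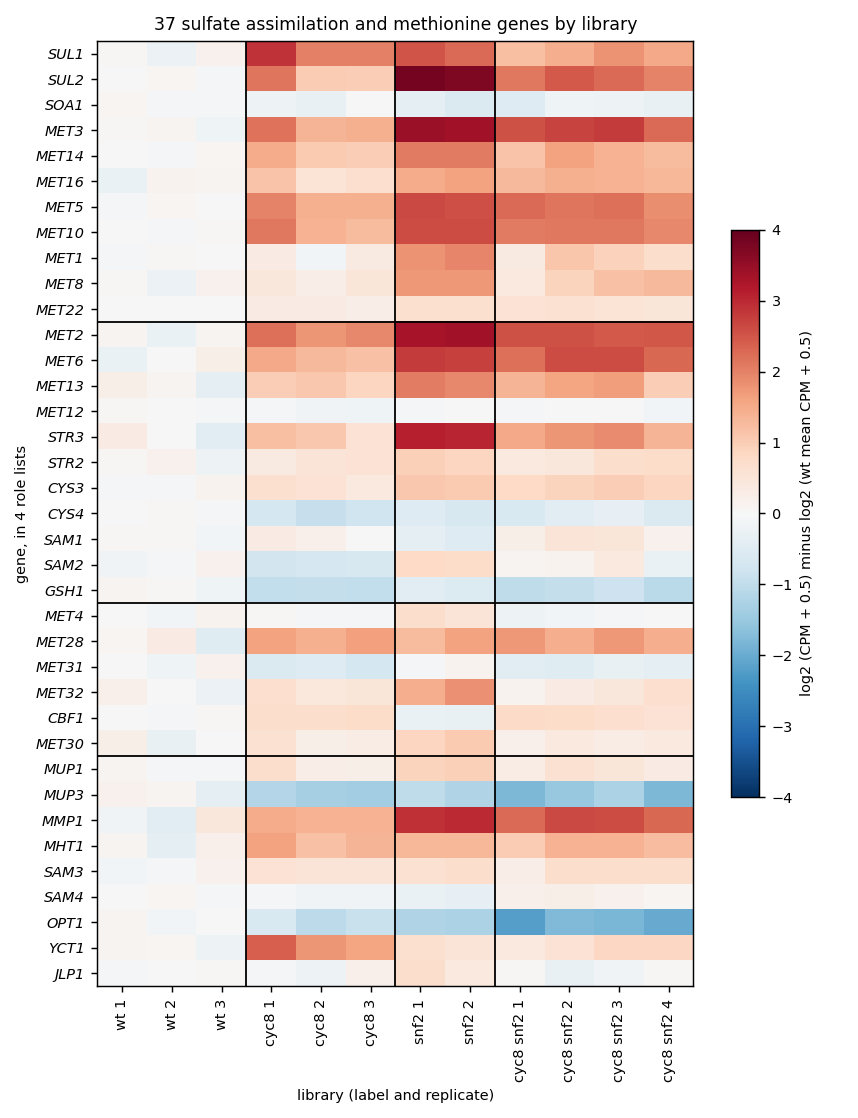
Colour gives the log2 of CPM plus a pseudocount of 0.5 minus that of the wt mean, for the 37 genes (lines, in 4 role lists) in the 12 libraries (columns). The columns of snf2 are the darkest red for most of the upper genes, and MUP3 and OPT1 are blue in every library that is not wt.

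A gene was called at an adjusted p below 0.05 in edgeR's quasi-likelihood test together with a fold change of at least 2. Against wt, 13 members rose and 1 fell in cyc8, or 37.8% of the members where 13.9% of all genes tested were called (10.4% higher, 3.48% lower). In snf2, 18 rose and 2 fell, or 54.1% against 9.64% of all genes (4.25% higher, 5.4% lower). In the double mutant, 15 rose and 2 fell, or 45.9% against 13.7% (9.71% higher, 3.97% lower). By the adjusted p alone, edgeR marked 29 members in cyc8, 35 in snf2 and 30 in the double mutant, and 46.8%, 35.9% and 50.9% of all genes. The libraries of the groups did not overlap for 30, 35 and 30 members, and for 54.6%, 59.3% and 50.4% of all genes. The median log2 fold change of the 37 was 0.53 in cyc8, 0.97 in snf2 and 0.69 in the double mutant, where the medians of all genes tested were -0.05, 0.02 and -0.03. These 3 comparisons share the wt libraries. YCT1 rose in cyc8 and was not called in snf2. CYS3, MET1, MET13, MET16, MET32 and MET8 rose in snf2 and were not called in cyc8. A call in 1 group and none in another does not show a difference between those groups, which were not tested against each other. In all, 16 of the 37 were called in none of the 5 comparisons between groups.

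Sulfate enters through the permeases SUL1 and SUL2. SUL2 (YLR092W) had 8.46, 8.84 and 7.89 CPM in wt, 38.5, 17.3 and 16.9 with cyc8, 127 and 119 with snf2 and 38.0, 48.4, 42.5 and 35.0 with both. No wt library reached the level of any other library, both snf2 libraries stood far above the rest, and the ranges of cyc8 and the double mutant overlapped. SUL2 rose 2.87-fold in cyc8 (log2 1.52 ± 0.28, where errors of log2 changes are SE, adjusted p = 0.0011, edgeR) and 14.7-fold in snf2 (3.87 ± 0.30, adjusted p = 2.86e-06), and it fell 3.00-fold from snf2 to the double mutant (adjusted p = 0.000464). SUL1 (YBR294W) had 0.561, 0.380 and 0.668 CPM in wt, 7.27, 3.65 and 3.68 with cyc8, 5.45 and 4.45 with snf2 and 1.87, 2.31, 3.07 and 2.44 with both. It rose 8.79-fold in cyc8 and 9.06-fold in snf2 (adjusted p = 5.03e-06 and 1.41e-05, edgeR), and the ranges of these groups overlapped. The 2 permeases are 69.3% identical over the aligned coding bases. SOA1, a transporter of sulfate and sulfonates, had means of 3.59 to 5.14 CPM and was not called.

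The means of the enzymes that activate and reduce sulfate stood in the same order of groups as those of SUL2. MET3 (YJR010W), the ATP sulfurylase of the first step, had 19.6, 20.4 and 16.5 CPM in wt, 86.3, 49.4 and 51.1 with cyc8, 212 and 196 with snf2 and 112, 127, 134 and 92.7 with both. The 4 groups did not overlap, and the folds over wt were 3.30 in cyc8, 10.8 in snf2 and 6.17 in the double mutant (adjusted p = 3.73e-05 and 5.06e-07 for the first and second, edgeR). The MET3 model lies wholly inside SPC1 on the opposite strand, and SPC1 had 46.1 ± 3.35 CPM in wt, 44.9 ± 7.03 with cyc8, 39.7 ± 1.72 with snf2 and 58.5 ± 5.01 with both. MET14 (YKL001C), the kinase of the second step, rose 2.30-fold in cyc8 and 4.29-fold in snf2, from 23.6 ± 1.01 CPM in wt to 54.4 ± 10.5 and 101 ± 1.08. MET16 (YPR167C), which reduces the activated sulfate to sulfite, had 7.07 ± 1.16 CPM in wt and rose 3.05-fold in snf2 (adjusted p = 8.07e-06, edgeR), while cyc8 stood 1.80-fold above wt without a call.

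Sulfite reductase is built from the subunits MET5 and MET10, and its siroheme is made by MET1 and MET8. MET5 (YJR137C) had 80.6, 88.8 and 82.3 CPM in wt, 336, 227 and 223 with cyc8, 520.2 and 507 with snf2 and 409, 369, 392 and 304 with both. Only the ranges of cyc8 and the double mutant overlapped, and the folds over wt were 3.12, 6.13 and 4.39. MET10 (YFR030W) had 47.6, 46.7 and 50.2 CPM in wt, 207, 128 and 117 with cyc8, 298 and 298 with snf2 and 207, 209.6, 210.0 and 184 with both, or 3.13-fold, 6.19-fold and 4.21-fold above wt. The siroheme genes were not called in cyc8. MET1 (YKR069W) was 1.16-fold above wt there (adjusted p = 0.361, edgeR) and MET8 1.35-fold (adjusted p = 0.117), while in snf2 they rose 3.80-fold and 3.62-fold. MET1 then fell 2.13-fold from snf2 to the double mutant (log2 -1.09 ± 0.17, adjusted p = 0.000191, edgeR), a call lost through the fold threshold without snf2 replicate 2 (-0.999) or double mutant replicate 1 (-0.96). MET22, a phosphatase that removes the by-product of sulfate reduction, had 68.4 ± 0.854 CPM in wt and 108 ± 0.360 in snf2, 1.58-fold apart, below the fold set for a call.

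Summed over the 11 genes of sulfate uptake and reduction, the level was 273 to 283 CPM in wt, 576 to 866 with cyc8, 1410 to 1444 with snf2 and 820 to 996 with both. In cyc8, 6 of the 11 rose (median log2 1.20), in snf2 9 rose (2.10), in the double mutant against wt 8 rose (1.42), and none fell. The shares were 54.5%, 81.8% and 72.7%, where 10.4%, 4.25% and 9.71% of all genes tested were called higher. MET8, 1 of those 8 (log2 1.06), lost its call through the fold threshold under upper-quartile scaling (0.98), with the replicate number as a block (0.92), and without wt replicate 2 (0.95) or double mutant replicate 3 (0.99) or 4 (0.94). The highest library of cyc8 in that sum was replicate 1, which was also the highest of the 3 for 12 of the 13 members that rose in cyc8 (92.3%), against 50.8% of all 640 genes that rose there. Without that library 12 of the 13 were still called, with SUL2 at a log2 fold change of 1.03, MET14 at 1.03, MET3 at 1.42 and SUL1 at 2.75.

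**Figure D2:**
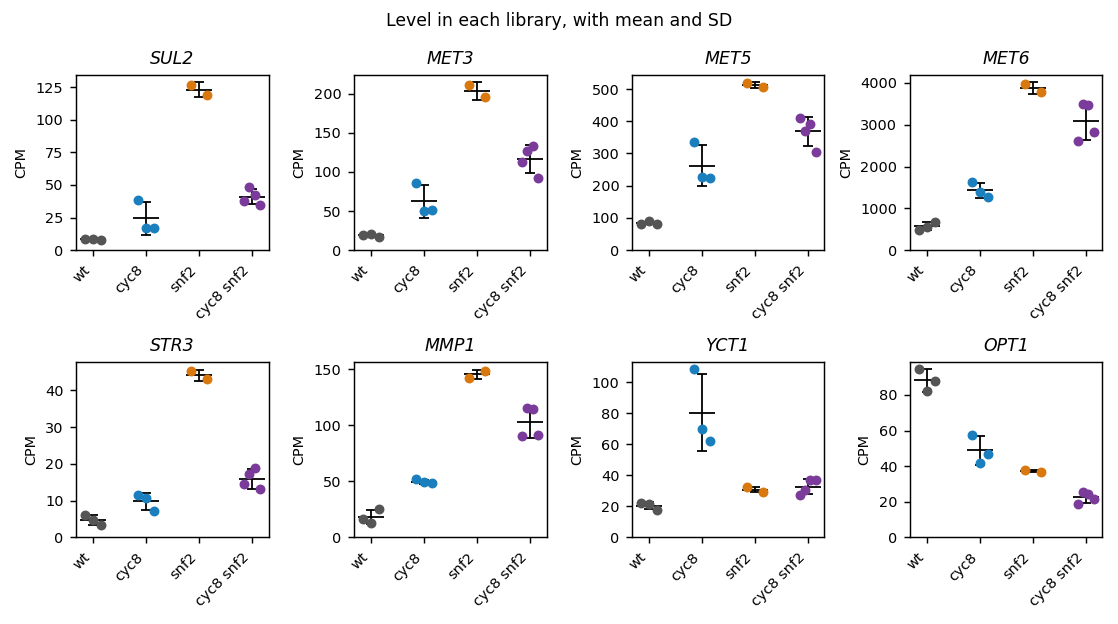
CPM of 8 members in each library (points) with the mean (long bar) and SD (short bars) by group, on a separate axis for each gene starting at 0. SUL2, MET3, MET5, MET6, STR3 and MMP1 are highest in snf2, YCT1 in cyc8 and OPT1 in wt.

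Of the 11 genes for methionine, cysteine and S-adenosylmethionine, 3 rose in cyc8 (median log2 0.50), 5 in snf2 (0.94) and 4 in the double mutant against wt (0.60), and none fell. These were 27.3%, 45.5% and 36.4% of the 11, where 10.4%, 4.25% and 9.71% of all genes tested were called higher. MET2 (YNL277W), which activates homoserine for sulfide incorporation, had 7.18, 5.42 and 7.05 CPM in wt, 31.8, 23.4 and 26.3 with cyc8, 68.8 and 71.2 with snf2 and 41.1, 40.4, 38.4 and 39.3 with both. The 4 groups did not overlap, with folds over wt of 4.12, 10.6 and 6.05 (adjusted p = 1.43e-08 in cyc8 and 6.46e-10 in snf2, edgeR). The MET2 model overlaps YNL276C on the opposite strand by 50.7% of its length and BOR1 on its own strand by 46.2%. YNL276C stood at 9.72 ± 0.659, 3.09 ± 1.16, 4.14 ± 1.51 and 2.98 ± 0.961 CPM in wt, cyc8, snf2 and the double mutant. BOR1 stood at 8.37 ± 0.391, 5.87 ± 0.449, 8.47 ± 0.851 and 7.97 ± 1.31 CPM in that order. STR3 (YGL184C), which converts cystathionine to homocysteine, had 6.09, 4.71 and 3.46 CPM in wt, 11.6, 10.6 and 7.27 with cyc8, 45.2 and 43.1 with snf2 and 14.4, 17.4, 18.8 and 13.1 with both. Its groups did not overlap either, and it rose 2.06-fold in cyc8 and 9.26-fold in snf2 and fell 2.77-fold from snf2 to the double mutant (adjusted p = 5.14e-05, edgeR). The call of STR3 in cyc8 was lost without wt replicate 3 (log2 0.85), cyc8 replicate 1 (0.91) or cyc8 replicate 2 (0.98) and under upper-quartile scaling (0.92), each time through the fold threshold alone. STR2, its paralog of the reverse direction, had 15.8 ± 2.09 CPM in wt and 30.3 ± 1.37 in snf2 (adjusted p = 0.000131, edgeR), 1.92-fold apart and not called.

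MET6 (YER091C), the methionine synthase, had the highest level per kilobase of the 37 genes in snf2 and the double mutant. It had 474, 563 and 670.4 CPM in wt, 1625, 1393 and 1269.7 with cyc8, 3984 and 3787 with snf2 and 2604, 3496, 3479 and 2818 with both. No groups overlapped, with folds over wt of 2.51, 6.83 and 5.45, and the double mutant stood 2.17-fold above cyc8 (log2 1.12 ± 0.14, adjusted p = 8.06e-05, edgeR). MET6 alone made up 13.2% to 18.0% of all counts of the 37 genes in wt, 28.2% to 28.9% in cyc8, 44.8% to 45.3% in snf2 and 38.8% to 43.3% in the double mutant. Per kilobase of gene model, its level was 205 CPM in wt, below SAM1 at 498, CYS4 at 360 and CYS3 at 234. In snf2 it was 1403 CPM per kilobase against 494 for CYS3 and 362 for SAM1.

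MET13 (YGL125W), the methylenetetrahydrofolate reductase that supplies MET6, had 42.2, 38.3 and 27.0 CPM in wt, 72.1, 75.6 and 65.0 with cyc8, 149 and 138 with snf2 and 92.8, 108, 115 and 71.7 with both. Its wt libraries lay below and its snf2 libraries above the rest, and cyc8 and the double mutant overlapped. MET13 rose 4.00-fold in snf2 and was not called in cyc8, where its log2 difference of 0.98 ± 0.18 (adjusted p = 0.0008, edgeR) fell just short of the fold. Its paralog MET12 had group means of 65.2 to 71.3 CPM and was not called. CYS3 (YAL012W), the cystathionine gamma-lyase, rose 2.11-fold in snf2 (log2 1.08 ± 0.10, adjusted p = 1.84e-06, edgeR), from 390.3 ± 35.2 to 822 ± 9.83 CPM. CYS4, the cystathionine beta-synthase, stood at 638 ± 20.1 CPM in wt and 363 ± 25.8 in cyc8, and GSH1, the first enzyme of glutathione synthesis, at 115 ± 11.2 and 58.2 ± 0.753. Both differences (log2 -0.81 ± 0.09 and -0.98 ± 0.09) had an adjusted p below the threshold in edgeR but missed the fold. SAM1 and SAM2, the S-adenosylmethionine synthetases, are 83.5% identical over aligned coding bases, so some of their reads could be split. Of the 50-base words in their models, 1.27% and 1.18% recurred in the genome. In snf2 SAM1 stood at 587 ± 39.5 CPM against 807 ± 50.8 in wt, and SAM2 at 246 ± 5.76 against 144 ± 17.3, and neither was called.

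Among the 6 regulators, MET28 (YIR017C), a cofactor that stabilises the Met4 complex on DNA, rose 2.90-fold to 3.23-fold in the mutant groups. It had 5.05, 6.09 and 3.26 CPM in wt, 15.5, 13.7 and 16.1 with cyc8, 12.2 and 15.6 with snf2 and 17.1, 13.9, 17.1 and 13.9 with both. The wt libraries lay below the rest and the mutant groups overlapped, with folds of 3.15, 2.90 and 3.23 over wt. Models on the opposite strand, YIR016W among them, cover 74.1% of MET28, and YIR016W had means of 13.7, 26.7, 8.67 and 23.0 CPM in wt, cyc8, snf2 and the double mutant. MET32 (YDR253C), one of the DNA-binding partners of Met4, had 1.68, 1.38 and 1.13 CPM in wt, 2.52, 2.02 and 2.16 with cyc8, 4.75 and 6.30 with snf2 and 1.61, 1.86, 2.11 and 2.49 with both. The snf2 libraries stood above the rest, and the double mutant overlapped wt and cyc8. MET32 rose 3.93-fold there and fell 2.74-fold from snf2 to the double mutant (adjusted p = 2.23e-05 and 0.000101, edgeR). BTT1 on the opposite strand covers 95.8% of the MET32 model and had 8.88 ± 0.241 CPM in wt and 13.6 ± 0.865 in snf2.

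The remaining regulators were not called in any of the 5 comparisons between groups, which do not include cyc8 against snf2. MET4 itself had 32.6 ± 2.92, 32.1 ± 1.43, 50.4 ± 5.04 and 30.4 ± 1.73 CPM in wt, cyc8, snf2 and the double mutant. MET30, the subunit that restrains Met4, had 21.8, 14.8 and 18.4 CPM in wt, 28.4, 21.8 and 22.6 with cyc8, 33.7 and 38.3 with snf2 and 21.2, 23.9, 22.5 and 24.2 with both. The snf2 libraries of MET30 lay above the rest, and the double mutant overlapped wt and cyc8. MET31, the paralog of MET32, had 11.1 ± 1.41 CPM in wt and 11.4 ± 1.21 in snf2, against 7.13 ± 0.425 in cyc8 and 8.28 ± 0.512 in the double mutant. CBF1 was high in both groups with cyc8, at 44.1 ± 0.663 and 43.2 ± 2.59 CPM against 26.6 ± 1.24 in wt and 21.9 ± 0.362 in snf2. Its difference between the double mutant and snf2 had a log2 value of 0.98 ± 0.08 (adjusted p = 7.21e-07, edgeR), just under the fold. GCN4, the activator of amino acid synthesis genes, is not a member and stood at 844 ± 58.0, 1146 ± 71.3, 1277 ± 58.4 and 1341 ± 41.9 CPM in wt, cyc8, snf2 and the double mutant. Its part in the changes of the members was not tested.

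The 9 genes for organic sulfur held MUP3 and OPT1, the members that fell against wt. MMP1 (YLL061W), the high-affinity permease for S-methylmethionine, had 16.6, 13.2 and 24.9 CPM in wt, 51.7, 49.1 and 48.3 with cyc8, 142 and 148 with snf2 and 90.2, 115, 114 and 91.2 with both. No groups overlapped, and the folds over wt were 2.72, 7.96 and 5.62. MHT1 (YLL062C), the methyltransferase that uses S-methylmethionine and shares the printed 207 bases with MMP1, had means of 5.27 ± 1.17, 14.7 ± 2.41, 14.1 ± 0.0697 and 13.4 ± 1.72 CPM. It rose 2.76-fold in cyc8, 2.66-fold in snf2 and 2.52-fold in the double mutant. AYT1 on the same strand overlaps 23.8% of the MHT1 model, so some reads of MHT1 may be uncertain. MMP1 stood 2.07-fold above cyc8 in the double mutant (log2 1.05 ± 0.17, adjusted p = 0.00121, edgeR), a call lost without replicate 2 or 3 of the double mutant (0.99 in both).

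YCT1 (YLL055W), the cysteine transporter, had 21.9, 21.3 and 17.8 CPM in wt, 108, 70.0 and 62.1 with cyc8, 32.2 and 29.5 with snf2 and 27.0, 30.6, 36.7 and 36.7 with both. The cyc8 libraries stood above the rest, and snf2 and the double mutant overlapped. YCT1 rose 3.94-fold in cyc8 (log2 1.98 ± 0.20, adjusted p = 4.85e-06, edgeR) and was 2.45-fold lower in the double mutant than in cyc8 (adjusted p = 0.000316). OPT1 (YJL212C), the high-affinity glutathione transporter, had 94.8, 82.1 and 87.6 CPM in wt, 57.7, 42.0 and 47.0 with cyc8, 37.6 and 36.7 with snf2 and 18.7, 25.7, 24.2 and 21.5 with both. Its groups did not overlap, in the order wt, cyc8, snf2 and double mutant, and it fell 2.37-fold in snf2 and 3.91-fold in the double mutant against wt (adjusted p = 1.92e-05 and 1.03e-08, edgeR). MUP3 (YHL036W), a low-affinity methionine permease, had 63.0, 60.4 and 42.9 CPM in wt, 24.1, 21.8 and 20.8 with cyc8, 26.9 and 23.7 with snf2 and 15.7, 19.0, 22.9 and 15.5 with both. All wt libraries lay above the rest, and MUP3 fell 2.49-fold in cyc8, 2.19-fold in snf2 and 3.04-fold in the double mutant. MUP1, the high-affinity methionine permease, had 95.4 ± 7.27 CPM in wt and 182 ± 5.44 in snf2 and was not called. SAM3, the S-adenosylmethionine permease, had means of 46.1 to 73.4 CPM and SAM4, a homocysteine methyltransferase, 139.7 to 193. JLP1, a sulfonate dioxygenase, had 1.81 to 3.09, and these members were not called. In the SAM4 model 15.2% of the 50-base words recurred in the genome, so some of its reads may be uncertain.

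The effect of cyc8 where snf2 was also lost was read from the double mutant against snf2, within 1 strain background. The double mutant also gained URA3, the marker of its cyc8 allele. In this comparison 5 members fell, none rose, and 13.5% were called where 12.2% of all genes tested were, a share near the background. Of all genes 9.12% were called higher and 3.08% lower. The adjusted p alone marked 26 members and 48.1% of all genes. The 5 were SUL1, SUL2, STR3, MET1 and MET32, of which SUL1, SUL2 and STR3 had risen in cyc8 against wt. At an unadjusted p below 0.05, 3 members were higher and 24 lower, and DESeq2 called 1 higher and 5 lower, limma-voom 0 higher and 5 lower. The median log2 fold change was -0.48, where all genes tested had -0.03, and 30 of the 37 values were negative. Across all genes 563 rose and 190 fell in this comparison. SUL1 fell 2.06-fold (log2 -1.04 ± 0.28, adjusted p = 0.00814, edgeR), and its call was lost without snf2 replicate 1 (-0.87, adjusted p = 0.0962) or double mutant replicate 1 (-0.93). Without double mutant replicate 1, MET1 was lost too, which left 3 calls. The groups did not overlap for 30 of the 37, as for 64.1% of all genes tested.

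**Figure D3:**
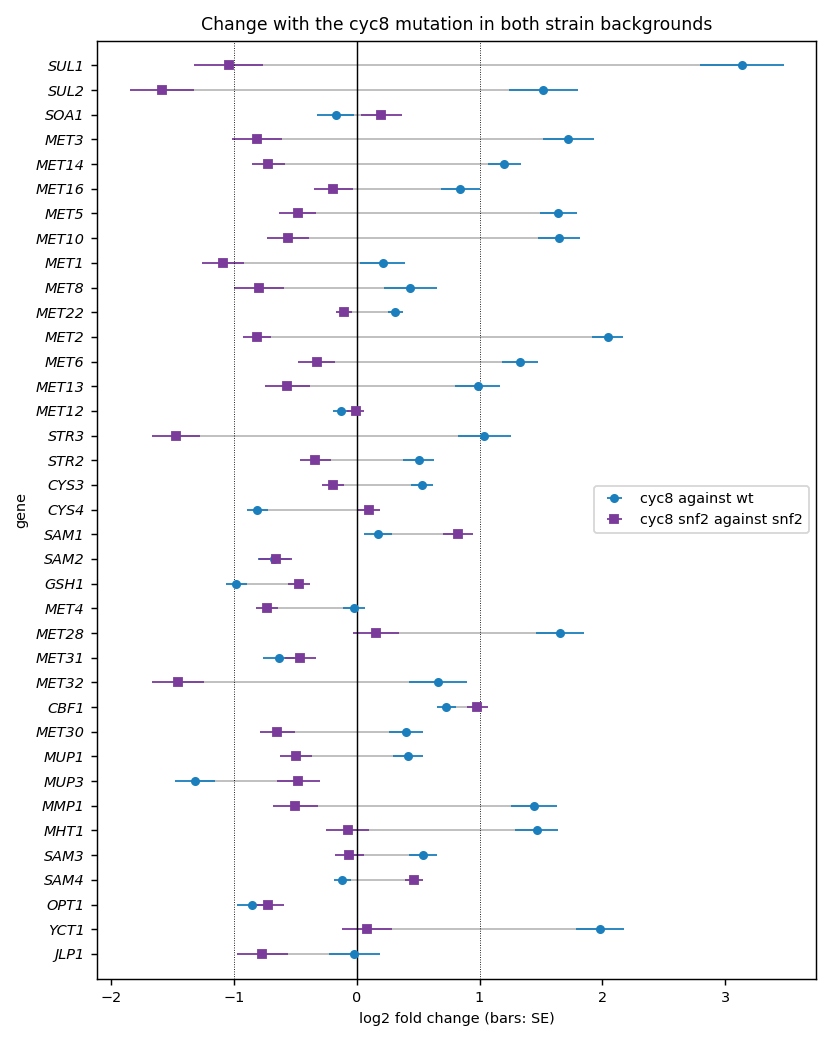
Points give the log2 fold change with the cyc8 mutation for each of the 37 genes, in wt (circles) and in snf2 (squares), with SE bars and dotted lines at a fold of 2. For most upper genes the circle lies right of 0 and the square left of it, as for SUL2 at 1.52 and -1.59.

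From cyc8 to the double mutant, 2 members rose (MET6 and MMP1) and 2 fell (YCT1 and OPT1), or 10.8% where 3.94% of all genes tested were called (0.924% higher, 3.01% lower). The adjusted p alone marked 17 members and 19% of all genes, and libraries did not overlap for 15 members and 29.6% of all genes. OPT1 fell 2.17-fold (log2 -1.12 ± 0.12, adjusted p = 1.92e-05, edgeR), a call lost without cyc8 replicate 1 (-0.98). The median log2 fold change of the 37 was 0.19, against 0.01 for all genes, and that of the 11 sulfate genes 0.49 without any call.

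The interaction asks whether the log2 change with cyc8 differed between the snf2 strain and wt. It was below 0 and called for 19 of the 37 members and above 0 and called for none, or 51.4% where 8.9% of all genes tested were called (4.2% higher, 4.7% lower). The adjusted p alone marked 30 members and 26.4% of all genes. At an unadjusted p below 0.05 there were 26 members below and 6 above 0, and DESeq2 and limma-voom each called 19 below and 0 above. The median was -1.03, against -0.01 for all genes. The sulfate list held 9 of the 19 (median -1.92), the methionine list 4 (-0.73), and the regulators and the organic sulfur list 3 each (-0.88 and -0.75). SUL1 had the lowest value, -4.18 ± 0.44 (adjusted p = 2.05e-05, edgeR), followed by SUL2 with -3.11 ± 0.38 (adjusted p = 0.00018). MET2 had -2.86 ± 0.17 (adjusted p = 9.07e-08), MET3 -2.53 ± 0.29 (adjusted p = 8.47e-05) and STR3 -2.51 ± 0.29 (adjusted p = 5.65e-05) by the same test. YCT1 reached -1.89 ± 0.28 (adjusted p = 0.000422, edgeR). Like MET28 and MHT1, it rose in cyc8 and was not called between snf2 and the double mutant, whose ranges overlapped. The interaction of MET16 (-1.03) was lost without wt replicate 1, cyc8 replicate 1 or snf2 replicate 2 (-0.90, -0.83 and -0.99), and that of MET30 (-1.05) without wt replicate 2, cyc8 replicate 1 or snf2 replicate 2 (-0.92, -0.92 and -0.98). The background effect cancels here only if it adds to that of cyc8, so snf2 and strain cannot be told apart in this comparison either. The change in wt is that of cyc8::KAN and the change in snf2 that of cyc8::URA3, so the allele cannot be told apart from them.

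The same result can be read as products of folds. For SUL2, the folds of cyc8 and of snf2 over wt multiply to 42.0, and the double mutant stood 4.88-fold above wt. For MET3 the product was 35.7 and the observed fold 6.17, for MET5 19.1 and 4.39, and for MET6 17.2 and 5.45. In 17 of the 19 members the mean of the double mutant was below that of snf2 alone, and MET28 and YCT1 were the exceptions. The interaction term includes that difference, so calls below 0 favour such an order. From snf2 to the double mutant, 30 of all 37 members and 3261 of the 6171 genes tested had a negative log2 change.

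**Figure D4:**
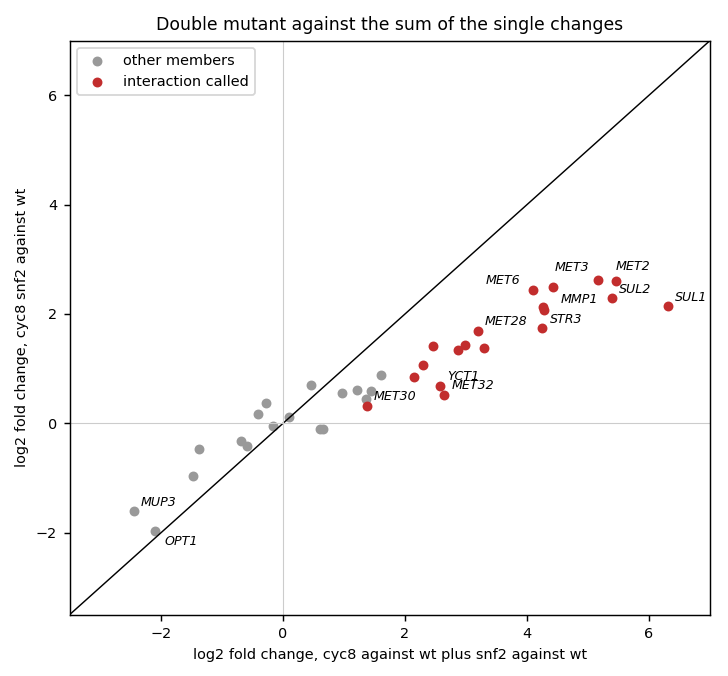
Each point is 1 of the 37 genes, with the log2 fold changes of cyc8 and snf2 over wt added on the x axis and the log2 fold change of the double mutant over wt on the y axis. Red points, the 19 called interactions, all lie below the diagonal, where the sum and the observed change would be equal.

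The windows before the 37 gene models were rich in the letters known for their regulators. CACGTG occurred on either strand of the 300-base window in 15 of the 37 (40.5%) against 4.45% of the 5998 windows read for all genes. CTGTGG occurred in 18 (48.6%) against 7.82%, and both in 7 (18.9%) against 0.517%. Matches of the motifs cannot overlap each other. CACGTG was found in 7 of the 11 sulfate genes (63.6%) and in 1 of the 9 organic sulfur genes, where CTGTGG was found in 5 (55.6%). Of the 18 members that rose in snf2, 9 held CACGTG (50.0%) and 8 CTGTGG (44.4%). Of the other 19, 6 held CACGTG (31.6%) and 10 CTGTGG (52.6%). SUL1, MET5 and STR3 rose in all 3 mutant groups with neither motif in their windows. For SUL1 and MET5 the model starts at the coding start, so their windows hold the untranslated leader. Models of other genes cover the whole windows of CYS3, MET2, MET3, MET4, MET16, MET31, MUP3, OPT1, SAM4 and SUL2. A window is therefore not always a promoter.

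A further 37 genes of sulfur and amino acid metabolism and of the Met30 ubiquitin ligase, none of them members, were read for comparison. In cyc8 4 rose and 4 fell (median log2 -0.04), or 21.6% where 13.9% of all genes tested were called. In snf2 2 rose and 5 fell (0.04), or 18.9% against 9.64%. In the double mutant against wt 4 rose and 6 fell (-0.05), or 27.0% against 13.7%. From snf2 to the double mutant 1 rose and 1 fell (0.03), or 5.41% against 12.2%. The interaction was called above 0 for OPT2 and SSU1 and below 0 for PDC6 (median 0.03), or 8.11% against 8.9%, a share near the background. PDC6, a minor pyruvate decarboxylase low in sulfur amino acids, had 0.481, 1.57 and 0.668 CPM in wt, 8.52, 7.43 and 6.17 with cyc8, 6.46 and 6.03 with snf2 and 4.77, 4.37, 7.03 and 7.36 with both. Its wt libraries lay below the rest, and it rose 8.29-fold in cyc8 and 7.04-fold in snf2, with an interaction of -3.14 ± 0.44. SSU1, the sulfite export pump, fell instead, from 91.6 ± 19.6 CPM in wt to 36.4 ± 1.41 in cyc8, 34.8 ± 1.61 in snf2 and 41.7 ± 4.02 in the double mutant, with an interaction of 1.59 ± 0.20. UTR4 and ADI1 of methionine salvage rose in cyc8, to 145 ± 27.9 and 111 ± 18.3 CPM from 55.2 ± 0.810 and 35.6 ± 3.90 in wt. Others of that pathway were not called there. MDE1 had 64.7 ± 10.2 CPM in wt and 67.0 ± 9.82 in cyc8, MRI1 106 ± 2.71 and 86.6 ± 0.959, and ARO8 526 ± 9.01 and 591 ± 15.6.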

How the data were processed

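Per the labels' protocols, hot phenol RNA was freed of ribosomal RNA and its paired-end libraries were read on an Illumina HiSeq. The deposited values are raw counts of each gene in the 12 libraries. The tools STAR, featureCounts and deepTools and the build R64 come from the submitters' processing notes. Tool versions, like the use of strand in counting, are not given there. MET3, wholly inside SPC1 on the opposite strand, had 6059 counts in snf2 replicate 1 where SPC1 had 1103, so counting told these strands apart. Reads of genes that overlap on the same strand may be uncertain. The table held 7150 genes, and 12 ribosomal RNA genes with 2 counts were left out.

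Groups came from the genotype in the labels. Counts were tested by quasi-likelihood in edgeR 4.0.16 (R 4.3.3), with filterByExpr, TMM scaling and robust dispersions, in 1 fit of the 12 libraries. It was checked on simulated counts. CPM values use TMM-scaled library sizes, and p-values were adjusted over the 6171 genes tested by Benjamini-Hochberg. A call required an adjusted p below 0.05 with a log2 fold change of 1 or more in either direction. The alternatives were other scalings, no filter, DESeq2 1.42.0, limma-voom (limma 3.58.1), only the groups compared, the replicate number as a block, adjusted p alone, and leaving out each library. Replicate numbers did not pair the samples, since 1 of 15 same-numbered pairs had a correlation above 0.1. Replicates of 1 group differed by more than sampling noise, the chi-square of every pair being at least 6.89 per degree of freedom.

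Members and lists were chosen with earlier results of these data known. Values in every library are given for the 2 to 4 called members of each role with the largest log2 fold change and a group mean of at least 10 CPM. SUL1, MET32 and PDC6 were added after their values were seen. Genes of the wider list are named only if called, except GCN4, named as a check, and MDE1, MRI1 and ARO8, named beside UTR4 and ADI1. Promoter windows were read from the R64 genome of RefSeq as the 300 bases before each gene model, in place of a promoter table that was not used here. All 37 identifiers matched the RefSeq annotation.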

Additional observations from a re-analysis of the deposited data

Results flagged for a closer look

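In the double mutant, the only group of 4 libraries, 2 of the 37 members had 1 library far from the other 3. MET10 was lowest in replicate 4, with 184 CPM, where the nearest library had 207. SAM3 was lowest in replicate 1, with 55.4 CPM, where the nearest had 75.0. Chance gives about 1 such group in 20, and 37 groups were examined. MET10 kept its calls without that library, and SAM3 was not called.

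For 19 members, the log2 change with cyc8 was lower in the snf2 strain than in wt, by the interaction term of edgeR's fit. Among the sulfate genes the difference was -4.18 for SUL1, -3.11 for SUL2, -2.53 for MET3, -2.20 for MET10, -2.12 for MET5, -1.92 for MET14, -1.30 for MET1, -1.23 for MET8 and -1.03 for MET16. Among the methionine genes it was -2.86 for MET2, -2.51 for STR3, -1.66 for MET6 and -1.55 for MET13. Among the regulators it was -2.12 for MET32, -1.50 for MET28 and -1.05 for MET30. Among the organic sulfur genes it was -1.94 for MMP1, -1.89 for YCT1 and -1.54 for MHT1. The strain background and the cyc8 allele change with snf2 in this term and cannot be told apart from it.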

How the results depend on the processing

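Of 1482 alternative values for the 79 called pairs of a member and a comparison, 1460 kept their direction and call, none reversed, and 22 in 8 pairs lost the call. Of these, 21 lost it through the fold threshold alone, and SUL1 in the double mutant against snf2 lost it with an adjusted p of 0.0962 in edgeR without snf2 replicate 1. With the adjusted p alone and no fold threshold, 29 members were called for cyc8 over wt, 26 for the double mutant over snf2, 35 for snf2 over wt, 17 for the double mutant over cyc8, 30 for the double mutant over wt, and 30 for the interaction. Leaving out 1 library gave 13 to 15, 3 to 6, 20 to 21, 3 to 5, 16 to 18 and 17 to 20 calls in that order, and the 3 came without replicate 1 of the double mutant. With the replicate number as a block, although the numbers do not pair the samples, the calls were 14, 7, 20, 5, 16 and 19. Under upper-quartile scaling the median over all genes shifted by -0.12 for cyc8 over wt and -0.13 for the double mutant over snf2. The groups of 2 to 4 libraries limit the precision of every fold, and levels near 1 CPM, as for SUL1 in wt, rest on few counts.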
